A study of Mus musculus with 34 samples.

Results

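The promoters of isolated long non-coding RNA (lncRNA) genes were examined for open chromatin in mouse hair follicle stem cells (HFSCs). From the GENCODE annotation of the mm39 mouse genome, every gene of type lncRNA on chromosomes 1 to 19 was taken whose start lay over 5 kb from every protein-coding transcription start, and its promoter was the start plus and minus 1 kb. This gave 21885 windows of 51772 lncRNA and protein-coding windows built in the same way, the others being 9266 promoters of lncRNA genes within 5 kb of a protein-coding start and 20621 protein-coding promoters. The 21885 windows covered 20238 separate stretches, because some starts lie close to each other. A total of 4722 started inside the body of a protein-coding gene, and the median distance to the nearest protein-coding start was 44298 bp. No measured value was used to choose them, and the measure was the presence of a called ATAC-seq peak in 34 libraries. ATAC-seq marks open DNA with a transposase, so a peak is a stretch where the transposase cut often, and it says nothing of whether RNA was made.

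The 34 libraries fall into 11 groups by their labels. In vivo, HFSCs were sorted as Itga6+ CD34 high and Sca1- cells from wild-type skin in full anagen, when the follicle grows (AnaVI wild type, n = 2, stored tag postnatal day 33), and in late catagen, when the lower follicle dies by apoptosis (CatVII wild type, n = 6, day 37). The CatVII stage was also sampled from mice with intact Rxra (CatVII Rxra WT, n = 4, day 42 for replicate 1 and day 37 for the others) and after tamoxifen had removed floxed Rxra, which encodes the nuclear receptor partner RXRα, through Sox9-creER (CatVII Rxra cKO, n = 3, day 42). The study's sorting notes for these libraries give Sox9-creER and a YFP reporter to both genotypes, with Rxra+/+ as the WT. They give a gate on YFP in place of CD34. The study's breeding notes also list controls that lacked Sox9-creER, and they give tamoxifen to all mice. In culture, primary Rxra WT HFSCs (Rxra+/+ with Sox9-creER and a YFP reporter) were grown on inactivated feeder fibroblasts and given medium (n = 2), cisplatin-killed HFSC corpses (n = 4), corpses pretreated with BEL (bromoenol lactone, which inhibits the calcium-independent form of phospholipase A2, n = 4) or a recombinant mixture of arachidonic acid, lysophosphatidylcholine and retinoic acid (n = 2). Rxra cKO cultures (Rxra fl/fl with Sox9-creER and the reporter) received medium (n = 2), corpses (n = 3) or the recombinant mixture (n = 2). By the study's methods Cre was switched on in the dish, and YFP+ cells were then sorted, in the lines of both genotypes. The sources used here do not give how many primary lines stood behind each genotype, so genotype and culture line cannot be told apart. Stored peak names tag libraries Phago or NonPhago and repeat numbers across these tags in several groups, and CatVII Rxra cKO replicates 2 and 3 both carry the mouse tag m2. The study's legends call the in vivo replicates biological, but whether every library came from its own animal or culture was not settled here, so the p-values reflect the spread of the libraries at hand, part of which may be technical.

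LncRNA genes are transcribed by RNA polymerase II like protein-coding genes, but most give little RNA and many are active in few cell types. Some act through their RNA, as Malat1 and Neat1 do in nuclear bodies, some are hosts from whose transcripts microRNAs or snoRNAs are cut, and at others the act of transcription or an enhancer within the promoter matters more than the product. An isolated lncRNA start cannot borrow its open chromatin from a protein-coding promoter next to it, which is why starts far from coding genes were taken.

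Libraries differed widely in size. The lists held 4144 to 129876 peaks, with the 4 medium libraries at 4144 to 5740 and the WT recombinant pair at 12989 and 89590. The shortest peak, which the caller sets to its estimate of fragment length, ran from 58 to 219 bp and separated AnaVI (58 to 89 bp) from CatVII wild type (126 to 150 bp) and BEL (144 to 145 bp) from untreated Rxra WT corpses (60 to 104 bp). No pair of lists was identical. Of 10 HFSC marker promoters, 7 to 8 carried a peak in CatVII Rxra WT and 0 to 8 in CatVII wild type. Krt5 carried one in 26 libraries, Krt14 in 25, Krt15 in 24, Sox9 in 29, Tcf7l1 in 28, Nfatc1 in 12 and Lhx2 in 9. Cd34 carried one in 8 in vivo libraries and none in culture, and Itga6 and Trp63 in none. Each gene was scored at its annotated start alone, so peaks at other starts of the gene were not counted. Of the markers listed for other cell types, Ptprc, Cd3e, Cx3cr1, Tyr, Dpt, Cdh5 and Tie1 had no peak in any library. Others did, namely Pmel in 29, Mitf in 28, Dct in 22, Col1a1 in 24, Cd68 in 21, Kdr in 9 and Pecam1 in 14, the last in culture only. Col1a2 had a peak in 4 libraries, Pdgfrb in 3, Lyz2 and Kit in 2 each and Pdgfra in 1. In such bulk libraries fewer cells of a type and a less open site per cell cannot be told apart. The promoter of Rxra lies outside the deleted part, so its peaks check nothing about the genotype labels.

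The sequences that carry the results that follow come in 3 kinds, with mm39 coordinates. The first are starts, from 250 bases before to 50 after. Mir205hg, host of the epithelial microRNA miR-205, starts in chr1:193192470-193192769 (minus strand), where capitals mark a GATA word and a RUNX word. Gm20732, host of Mir30d, starts in chr15:68234976-68235275 (minus strand), where capitals mark 2 SP/KLF words among 39 CG pairs. H19, an imprinted RNA of fetal growth, starts in chr7:142133908-142134207 (minus strand), where capitals mark an AP-1 and a TEAD word.
Mir205hg: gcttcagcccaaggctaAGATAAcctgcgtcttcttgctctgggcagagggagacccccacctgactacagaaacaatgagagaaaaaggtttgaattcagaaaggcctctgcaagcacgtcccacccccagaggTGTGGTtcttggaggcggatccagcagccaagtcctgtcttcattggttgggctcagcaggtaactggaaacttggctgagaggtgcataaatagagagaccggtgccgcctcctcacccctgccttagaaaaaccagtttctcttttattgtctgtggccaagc
Gm20732: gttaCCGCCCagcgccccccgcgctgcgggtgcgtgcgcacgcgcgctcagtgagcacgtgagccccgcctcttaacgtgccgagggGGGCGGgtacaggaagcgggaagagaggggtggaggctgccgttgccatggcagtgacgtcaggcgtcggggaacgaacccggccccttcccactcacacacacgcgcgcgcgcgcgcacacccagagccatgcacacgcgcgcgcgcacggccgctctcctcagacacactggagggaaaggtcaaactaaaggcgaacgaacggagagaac
H19: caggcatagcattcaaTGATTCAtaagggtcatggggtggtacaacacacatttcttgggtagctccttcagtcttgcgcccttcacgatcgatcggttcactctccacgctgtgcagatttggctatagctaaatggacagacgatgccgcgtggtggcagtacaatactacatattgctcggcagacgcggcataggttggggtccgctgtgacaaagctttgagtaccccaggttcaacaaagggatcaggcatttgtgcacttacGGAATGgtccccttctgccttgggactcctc

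The second kind are the mature microRNAs of hosts named in the text, from RefSeq (GRCm38.p6), shown because the seed, bases 2 to 8 and in capitals, sets which transcripts a microRNA pairs with. The members contained 231 microRNA genes, of which 148 had a mature sequence in the table. The let-7 hosts share a seed, and so do the miR-29 hosts, so different members feed the same seed families.
mmu-let-7a-5p (host 6720427I07Rik): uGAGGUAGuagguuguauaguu
mmu-let-7i-5p (host Gm63655): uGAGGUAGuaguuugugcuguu
mmu-miR-29c-3p (host A330023F24Rik): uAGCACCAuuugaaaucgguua
mmu-miR-29a-3p (host Gm67885): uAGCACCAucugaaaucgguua
mmu-miR-17-5p (host Mir17hg): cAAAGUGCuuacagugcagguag
mmu-miR-205-5p (host Mir205hg): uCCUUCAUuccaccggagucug
mmu-miR-31-5p (host Gm49890): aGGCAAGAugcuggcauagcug
mmu-miR-34a-5p (host Gm13067): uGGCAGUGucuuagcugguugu
mmu-miR-155-5p (host Mir155hg): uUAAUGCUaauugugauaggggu
mmu-miR-181a-5p (host Mir181a-1hg): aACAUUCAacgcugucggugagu

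The third kind are peak summits, 121 bases each on the strand of the gene. They are of 5 leading members called in Rxra WT corpse culture but not in CatVII Rxra WT, in lists cut to equal length, and of 5 with the opposite pattern. Members with a summit near the window edge, or on a chromosome left out of the printed sequences, were passed over. Each summit is that of the member's best-ranked peak over all libraries, so it need not come from the group named. Gm60110 and Serpina3h of the second 5 also had peaks with corpses below that length. The summits are shown because the AP-1 word TGANTCA, in capitals, is held by 4 of the first 5 and by 0 of the second 5. The corpse culture summits are chr2:155721016-155721136 (minus) for Gm75492, chr1:183666200-183666320 (plus) for Gm34130, chr6:82886271-82886391 (plus) for Gm66412, chr2:24330222-24330342 (plus) for Gm13415 and chr16:31828794-31828914 (minus) for Gm59925.
Gm75492: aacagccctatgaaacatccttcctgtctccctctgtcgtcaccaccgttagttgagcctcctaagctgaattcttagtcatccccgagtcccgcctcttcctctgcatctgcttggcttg
Gm34130: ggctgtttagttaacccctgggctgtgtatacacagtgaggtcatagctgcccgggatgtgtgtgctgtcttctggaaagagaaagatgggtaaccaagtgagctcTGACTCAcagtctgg
Gm66412: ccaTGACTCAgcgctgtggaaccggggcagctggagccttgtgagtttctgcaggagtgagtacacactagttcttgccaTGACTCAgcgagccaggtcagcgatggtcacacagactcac
Gm13415: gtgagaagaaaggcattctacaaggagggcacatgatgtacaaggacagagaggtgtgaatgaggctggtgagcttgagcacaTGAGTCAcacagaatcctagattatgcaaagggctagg
Gm59925: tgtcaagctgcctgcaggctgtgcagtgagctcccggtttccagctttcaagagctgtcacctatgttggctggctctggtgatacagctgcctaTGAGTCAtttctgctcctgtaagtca
The CatVII summits are chr8:47787268-47787388 (minus) for Gm64803, chr10:95609538-95609658 (minus) for Gm67544, chr16:25764166-25764286 (minus) for Gm60110, chr12:104213895-104214015 (plus) for Serpina3h and chr12:55493652-55493772 (plus) for Gm60878.
Gm64803: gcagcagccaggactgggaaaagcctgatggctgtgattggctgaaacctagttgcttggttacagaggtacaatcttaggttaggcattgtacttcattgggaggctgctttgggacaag
Gm67544: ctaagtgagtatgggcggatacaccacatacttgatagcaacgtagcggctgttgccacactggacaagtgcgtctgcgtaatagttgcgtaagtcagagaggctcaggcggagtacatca
Gm60110: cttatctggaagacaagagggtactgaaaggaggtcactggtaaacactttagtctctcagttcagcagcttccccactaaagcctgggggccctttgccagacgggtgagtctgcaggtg
Serpina3h: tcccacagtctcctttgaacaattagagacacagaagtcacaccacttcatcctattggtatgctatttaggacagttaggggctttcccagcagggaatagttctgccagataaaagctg
Gm60878: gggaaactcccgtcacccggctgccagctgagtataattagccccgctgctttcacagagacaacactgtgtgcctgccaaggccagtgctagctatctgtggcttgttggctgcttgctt

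Most isolated lncRNA promoters carried no called peak in any library, and a member is called open below where a peak was called. A peak was called in at least 1 library at 8030 of the 21885 members (36.7%, in 7376 separate stretches) and in no library at 13855 (63.3%). Among those with a peak the median was 7 libraries. A peak in 25 or more libraries was found at 711 members (3.25%, in 610 stretches), against 38% of protein-coding promoters and 34.1% of the promoters of lncRNA genes near a coding start. Peaks occurred in vivo only at 1993 members, in culture only at 2019 and in both at 4018, over 15 in vivo and 19 culture libraries. Members took 2.41 to 5.13% of a library's autosomal peaks, with a median of 4.36%, and protein-coding promoters 11.8 to 48.8%. Most members carry placeholder names, 96.8% being called Gm or Rik. Of the 402 with another symbol, 46% carried a peak and 8.46% did so in 25 or more libraries, against 36.5% and 3.01% where the name was Gm and a number.

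The share of members with a peak followed the size of the list. Over full lists it was lowest in the medium libraries, at 0.535 to 0.950% of members, and highest in CatVII Rxra WT (8.77 to 21.9%), CatVII Rxra cKO (8.31 to 20%), Rxra cKO corpses (13.2 to 20.1%), BEL corpses (14.2 to 19.5%) and Rxra WT corpses (11.9 to 18.4%). It was 2.65 and 17.1% in the WT recombinant pair, 12.2 and 13.7% in the cKO recombinant pair, 1.56 to 11.7% in CatVII wild type and 2.84 to 10.4% in AnaVI. These ranges overlap between most groups, and list size moves with them.

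**Figure D1:**
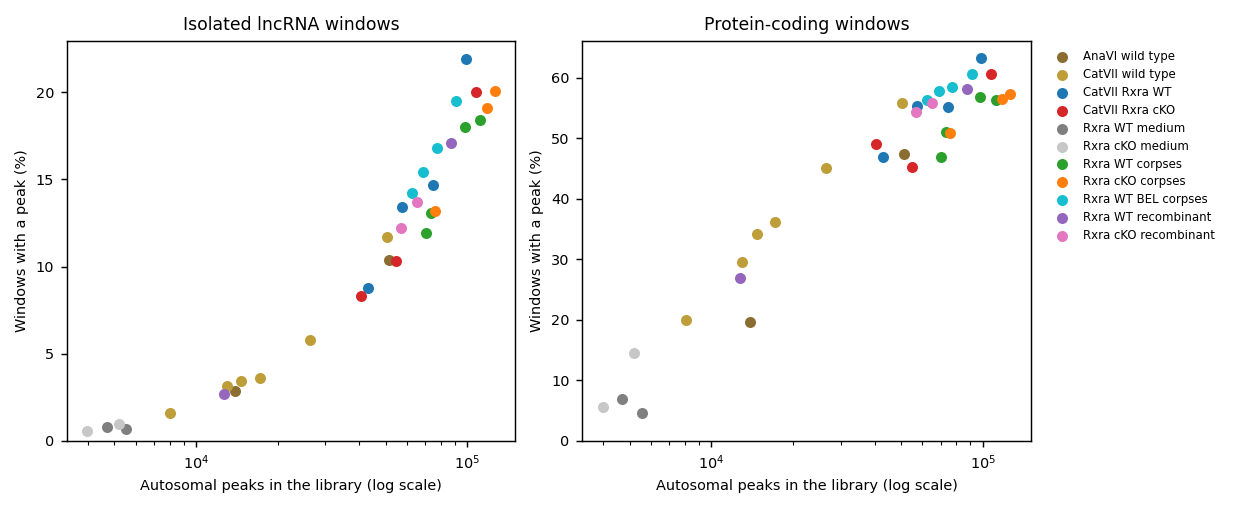
The share of windows with a called peak (vertical axis, percent) is drawn against the number of autosomal peaks in the library (horizontal axis, log scale) for isolated lncRNA promoters (left) and protein-coding promoters (right), with 1 point per library in the colour of its group. The lncRNA share reaches at most 21.9% and still climbs with list size in the largest libraries.

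Peaks at members lay less tightly on the start than peaks at coding genes. The summit of the peak with the best rank over all libraries lay within 200 bp of the start at 2784 of 8030 members (34.7%), against 57.9% of protein-coding promoters with a peak. For members with a peak in 25 or more libraries it was 46.8%, against 67.6% of coding promoters of that class. Peaks at members also ranked lower: the best rank in any library was at the top 36.6% of the list in the median, against 6.54% for coding promoters, and at 3.20% for members open in 25 or more libraries.

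**Figure D2:**
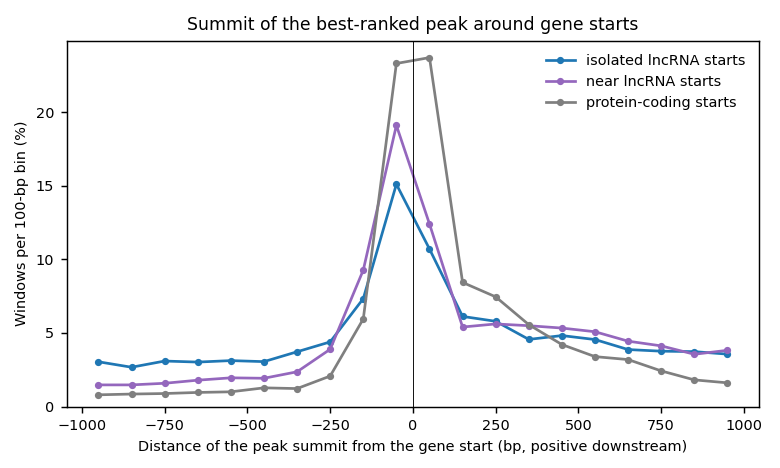
Each line gives the percent of windows (vertical axis, of those whose best-ranked summit lies inside the window) with that summit in each 100-bp bin around the gene start (horizontal axis, bp, positive downstream), for isolated lncRNA, near lncRNA and protein-coding starts. All lines are highest at the start, and 34.7% of isolated lncRNA and 57.9% of protein-coding windows with a peak have it within 200 bp.

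Widely open members differed in sequence from closed ones. The median ratio of observed to expected CG pairs was 0.198 in members without a peak, 0.217 with a peak in 1 to 9 libraries, 0.240 in 10 to 24 and 0.353 in 25 or more, against 0.469 in protein-coding promoters. A ratio above 0.6, as in CpG islands, was found in 0.217% of members without a peak and in 17% of those open in 25 or more libraries. In the 300-base start stretch, the SP/KLF word GGGCGG stood on either strand in 6.55%, 10.4%, 12.6% and 30.8% of these classes, against 24.6% of all promoters. The AP-1 word TGANTCA followed another order, at 9.48%, 12.3%, 16.9% and 14.8%, against 9.05% of all promoters. The TATA word TATAAA stood in 17.7% of members without a peak and 12.7% of the widely open class (14.3% of all promoters), and single-exon genes made up 4.63% and 16.6% of these classes. Of the other words searched on both strands, the ETS word CCGGAA was held by 11.3% of all promoters, the NFY word CCAAT by 36.9%, the TEAD word GGAATG by 16.1%, the GATA word AGATAA by 13% and the RUNX word TGTGGT by 18.5%. Matches of different words may overlap, and each is a run of letters and not a shown binding site.

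At the summits themselves AP-1 letters were common at members. Within 100 bp of the summit, TGANTCA was found at 25.6% of the 6611 members whose best-ranked summit lay at least 100 bp inside the window and at 33.2% of those open in 10 to 24 libraries, against 6.83% at protein-coding promoters and 12.3% at all promoters. GGGCGG was found at 13.5% of member summits and at 57% of coding ones. AP-1 is the Fos and Jun family of stress and growth factors, and its letters are also frequent at enhancers.

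A member was open more often where the promoter of the nearest coding gene was open. That gene was the one with the nearest transcript start, which also gave the distance. Its promoter was scored at the annotated gene start, which can be another start. In the median library, that promoter had a peak for 63% of members with a peak and for 52.5% of members without. The first was higher in 33 of 34 libraries. This held in 33 of 34 libraries for members within 20 kb of the coding start and in 32 of 34 for members over 100 kb away. The values are descriptions, because members of a library share its list size.

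Only 11 members, in 10 separate stretches, had a peak in all 34 libraries, against 239 protein-coding promoters. Gm26901 (ENSMUSG00000097797, chr1:7467544-7469544, minus strand, 237763 bp from Pcmtd1) had folds over local background of 8.17 and 6.20 in Rxra WT medium, 9.47 and 8.52 in Rxra cKO medium and 13.4 to 19.7 in Rxra WT corpses. Gm56736 (chr15:85517723-85519723, plus strand, 52049 bp from Wnt7b, a WNT ligand of skin) had 5.86 and 11.5 in AnaVI, 5.27 and 6.73 in Rxra WT medium and 13.8 to 17.3 in Rxra WT corpses. Both were open even in the shortest lists. Folds from lists of different depth are not on a common scale, so no test was run on them. Gm75297 and Gm75300 on chromosome 2 and Gm56847 and Gm56829 had 54.3%, 83.1%, 84.5% and 87.7% of their 25-base words repeated elsewhere in the genome. Gm71269 shared 97.9% of its words with the mitochondrial genome and Gm75808 shared 40.3%. So 6 of the 11 rested on repeated or mitochondria-like sequence, where reads cannot be placed with certainty. Over all members 1577 were mostly repeated, and 48 of the 711 open in 25 or more libraries.

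Of the widely expressed lncRNA genes listed, 9 of 10 members carried a peak and 7 did so in over 17 libraries, against 36.7% and 8.14% of all members. Dancr, named for holding epidermal progenitors undifferentiated, was open in 31 libraries. Its fold was 16.8, 18, 12.6 and 12.9 in CatVII Rxra WT, 13.9, 13.3 and 25 in the CatVII Rxra cKO libraries and 9.31, 12.3, 16.3 and 20.3 in Rxra WT corpses. These overlap, and the libraries without a peak were medium libraries. Malat1, whose RNA sits in nuclear speckles, was open in 26 libraries and Neat1, the scaffold of paraspeckles, in 27. Malat1 had folds of 9.01, 6.21, 5 and 4.77 in CatVII Rxra WT, 9.60, 8.52 and 15.8 in the CatVII Rxra cKO libraries and 6.27, 6.36, 7.4 and 7.72 in Rxra WT corpses. Oip5os1 (Cyrano) was open in 27, and Norad, which binds Pumilio proteins, and Lncpint in 21 each. None of these but Dancr had a peak in a medium library, and medium lists were the shortest. Miat had no peak in any library.

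All 11 Snhg members, hosts of snoRNAs that guide the modification of ribosomal RNA, carried a peak, and 10 did so in over 17 libraries. Snhg5 was open in 32 libraries, Snhg8 in 31, Snhg6 in 30 and Snhg12 in 24. Of 5 imprinted members 4 carried a peak. Kcnq1ot1, whose transcription silences genes on the paternal allele, was open in 26 libraries and Airn, which does so at Igf2r, in 24. Meg3 was open in none. The peak lists do not separate the parental alleles.

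H19, the third start printed above, was open in 15 libraries. Its fold was 3.33, 4.07, 6.10 and 5.83 in Rxra WT corpses, 6.17, 4.64, 8.63 and 10.5 in BEL corpses and 6.03 and 5.32 in the cKO recombinant pair, and no peak was called in the 3 Rxra cKO corpse libraries. In CatVII Rxra WT it was 9.56, 3.6 and 3.88 in replicates 2 to 4, and in CatVII Rxra cKO 5.37 in replicate 3 alone. AnaVI, CatVII wild type and medium libraries had none. The Rxra cKO libraries were thus not uniform, since corpses lacked the peak and the recombinant mixture had it.

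Of 162 members that host microRNA genes, 74 carried a peak and 30 (18.5%) did so in over 17 libraries, against 8.14% of all members. Gm20732, the CG-rich start shown above, was open in 32 libraries, 6720427I07Rik (let-7a-1, let-7d and let-7f-1) and A330023F24Rik (Mir29b-2 and Mir29c, 37333 bp from Cd34) in 31, Gm63655 (let-7i) in 30 and Mir17hg, host of a growth-promoting cluster, in 28. A330023F24Rik had folds of 6.51, 18.2, 10.7 and 8.38 in CatVII Rxra WT, 10.2, 8.44 and 18 in the CatVII Rxra cKO libraries and 7.07, 16.3, 18.5 and 18.7 in Rxra WT corpses. Its groups overlap, and unlike the promoter of Cd34 itself it was open in culture. The second miR-29 host, Gm67885, was open in 20. Mir205hg was open in 26 libraries and Gm49890 (Mir31, a microRNA of keratinocytes and the hair cycle) in 25.

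Gm13067, host of Mir34a, a target of p53, was open in 18 libraries. Its fold was 5, 8.67, 11.4 and 17.5 in Rxra WT corpses, 11.9, 11.6 and 11.6 in the Rxra cKO corpse libraries and 9.31, 8.90, 11.8 and 12.7 in BEL corpses. In CatVII Rxra WT it was 7.70 and 3.6 in replicates 2 and 3, in the CatVII Rxra cKO libraries 4.57 in replicate 3, and AnaVI had no peak. Every corpse library was therefore open there and 4 of 15 in vivo libraries were. Mir155hg, induced in activated immune cells, was open in 17, with 5.42, 7.49 and 8.01 in replicates 2 to 4 of Rxra WT corpses and 7.29, 7.62, 9 and 10.9 in BEL corpses. Mir142hg, host of the blood cell microRNA miR-142, was open in none, as were Sox2ot, Mir124-2hg and Mir124a-1hg of the nervous system. Over those lists 3 of 6 blood and immune members (50%) and 3 of 8 nervous system members (37.5%) had a peak, against 36.7% of all members, and 0 and 1 of them (12.5%) did so in over 17 libraries, against 8.14%. All 3 heart, mesoderm and fibroblast members had a peak but none in over 17, and of 4 epithelial members 3 had a peak, 2 of them in over 17.

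**Figure D3:**
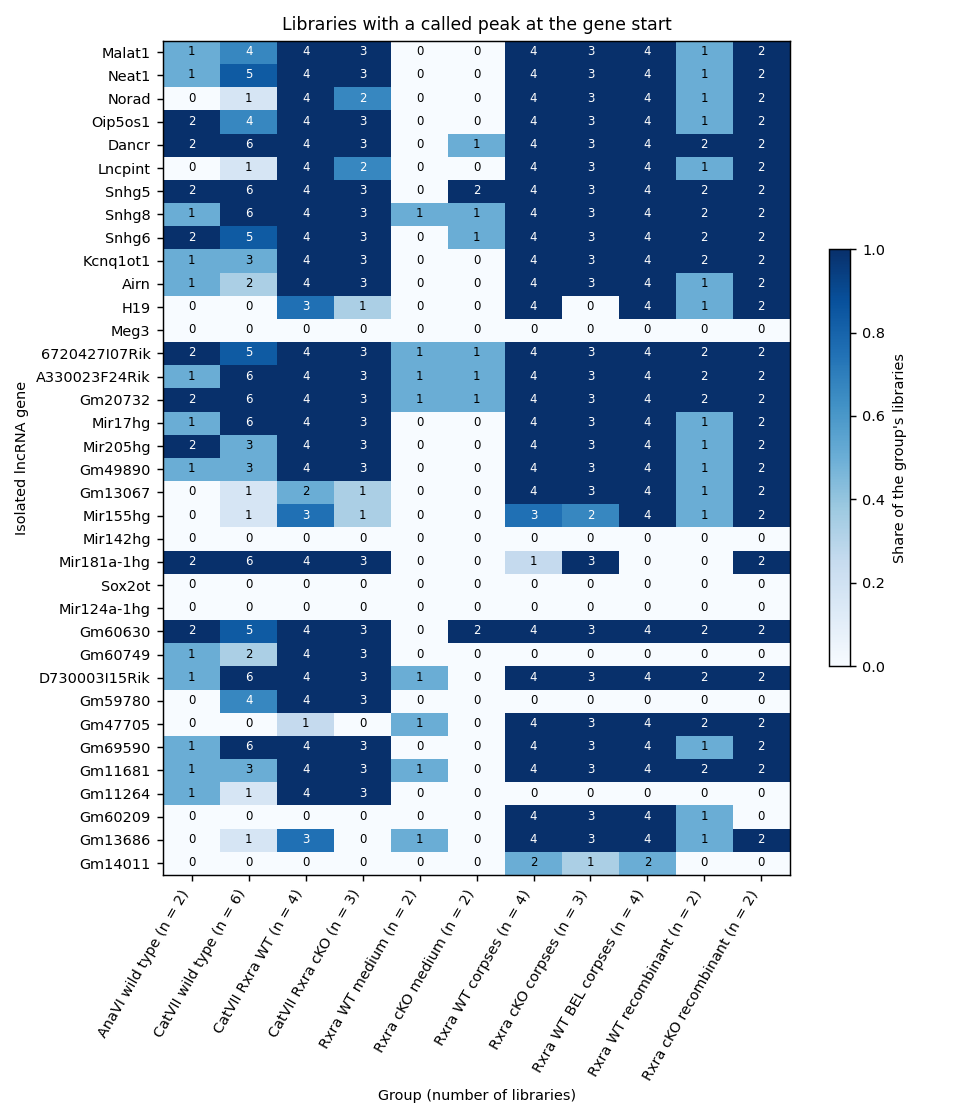
Each cell gives the number of libraries of a group (horizontal axis, number of libraries in brackets) with a called peak at the start of an isolated lncRNA gene (vertical axis), and the blue scale gives that number as a share of the group. Dancr, Snhg5 and Gm20732 are open in nearly every group, Mir181a-1hg is open in every in vivo library and in Rxra cKO culture with corpses or the recombinant mixture, and Meg3, Mir142hg, Sox2ot and Mir124a-1hg are at 0 throughout.

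Members whose nearest coding gene is a stress factor gene were often open. Of 61 such members 42 had a peak and 20 (32.8%) did so in over 17 libraries, against 8.14% of all members. Gm60630, 18476 bp from Fos, was open in 31 libraries and D730003I15Rik, 6360 bp from Atf3, in 30. Gm69590, near Klf4, a gene of the stem cell factor list counted below, was open in 28. A second start at the Fos locus, Gm60749 (6169 bp from Fos), was open in 10 in vivo libraries and in no culture. Its fold was 6.68, 6.90, 5.37 and 8.93 in CatVII Rxra WT against 6.42, 6.19 and 7.46 in the CatVII Rxra cKO libraries. The genotypes overlap there. The Id2 locus, also of the stem cell factor list, showed both patterns. Gm59780 (11902 bp from Id2) was open in 11 in vivo libraries and none in culture, with 7.54, 11, 6.96 and 8.19 in CatVII Rxra WT. Gm47705 (84485 bp from Id2) was open in 17 libraries, with 10.1, 16.1, 19.5 and 18.4 in Rxra WT corpses, and in vivo in CatVII Rxra WT replicate 2 alone, at 4.17. Id2 encodes an inhibitor of differentiation factors.

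Of 118 members nearest to stem cell factor genes 64 (54.2%) had a peak, above the 36.7% of all members, and 8 (6.78%) did so in over 17 libraries, below the 8.14% of all members. Gm11681, near Sox9, was open in 27, Gm11264, near Nfib, in 9 in vivo libraries only, and Gm60209, near Runx1, in 12 culture libraries only. Of 16 members nearest to retinoid and clearance genes 6 (37.5%) had a peak and 1 (6.25%) did so in over 17, Gm13686 near Itgav, open in 19. Gm14011, near the corpse receptor gene Mertk, was open in 5 culture libraries. Gm71774 starts inside Rara, the gene of a retinoic acid receptor (chr11:98858650-98860650, minus strand). Its fold was 6.47, 8.98, 6.66 and 6.91 in CatVII Rxra WT and 5.81 in replicate 3 of CatVII Rxra cKO, the other 2 having no peak.

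Some members with known roles stood outside these lists and were named after their values were seen. Lexis1 (58010 bp from Abca1) and Mexis, both known as targets of LXR, a partner of RXRα, were open in 24 and 9 libraries. Mexis was open in vivo only, with folds of 7.46, 10.3, 6.74 and 10.7 in CatVII Rxra WT against 6.68, 6.29 and 11.3 in the CatVII Rxra cKO libraries, which overlap. Lexis1 had 7.47, 9.29, 7.22 and 7.61 against 5.77, 9.29 and 15.7 in the same groups, which overlap as well. Trp53cor1, a p53 target next to Cdkn1a, was open in 27 libraries, Egfros inside Egfr in 30 and Terc, the RNA of telomerase, in 22. Junos and Wincr1 were open in none.

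The groups were set side by side in 6 comparisons on lists of equal length, each library keeping its peaks with the highest -log10 p up to the number in the shortest list. The share of members with a peak, and this share divided by that of coding promoters, were tested by exact two-sided permutation of the group labels over libraries. No value passed 0.05 after Benjamini-Hochberg adjustment over the 12 tests. Counts of members with a peak in every library of a group and none of the other are given without a test, beside the percent of all lncRNA and coding promoters called in the same way. These counts use the lists of equal length. A member given as open in a group alone can thus have called peaks in the other group below that length.

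**Figure D4:**
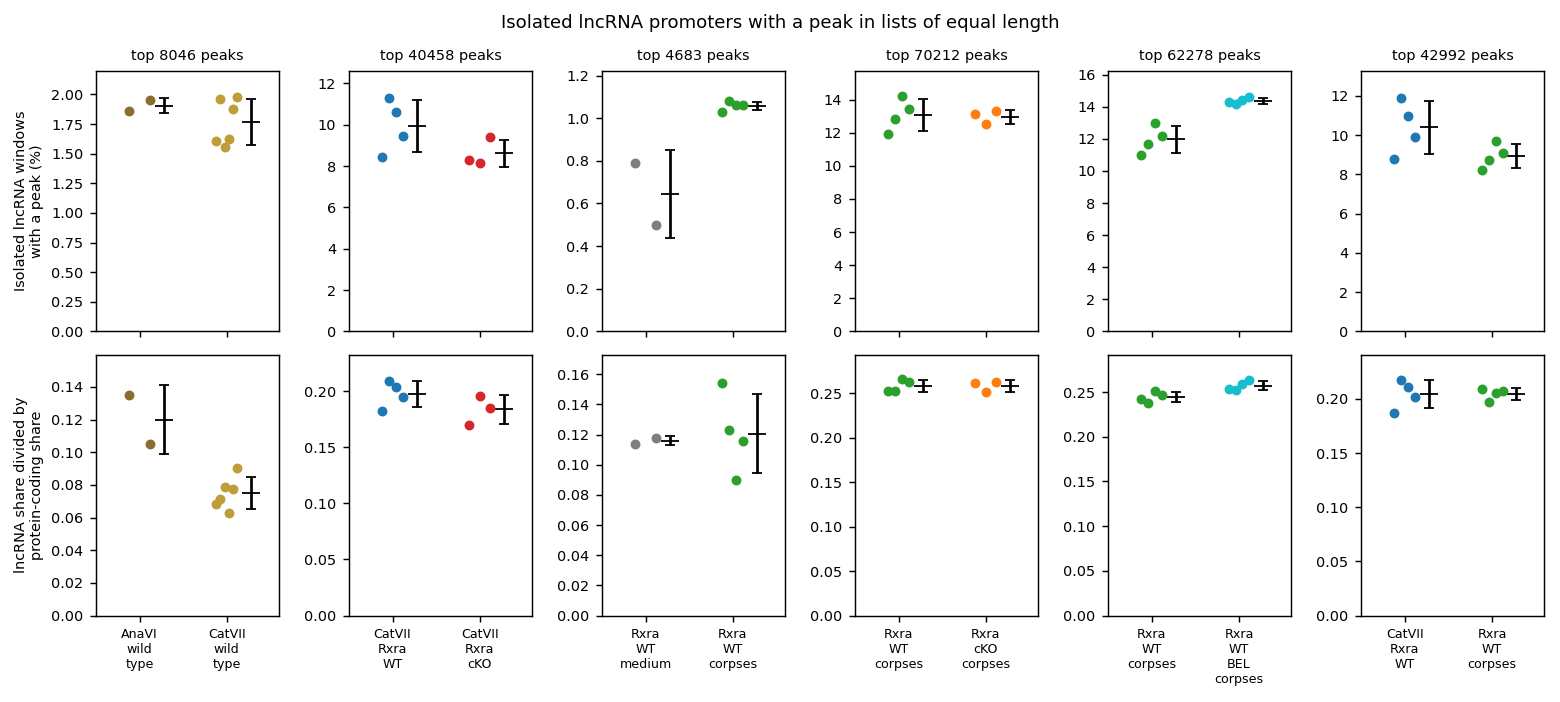
For each of the 6 comparisons (columns, with the list length above) the upper row gives the percent of isolated lncRNA windows with a peak and the lower row that share divided by the protein-coding share, with 1 point per library and the group mean with its SD as a black bar. BEL corpses lie above untreated corpses in share (14.4 against 12%), and CatVII wild type below AnaVI in ratio (0.0748 against 0.120).

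Late catagen and anagen were compared to ask how HFSC chromatin changes as the follicle regresses. At 8046 peaks per library, members took a share of 1.61, 1.96, 1.56, 1.62, 1.88 and 1.98% in CatVII wild type and 1.86 and 1.95% in AnaVI. The shares overlapped (1.77 ± 0.193% against 1.90 ± 0.0614%, SD, difference -0.132, exact permutation p = 0.429, adjusted 0.643), and the difference turned to 0.148 without CatVII wild type replicate 3. Coding promoters took 23.9% in CatVII and 16.2% in AnaVI (exact permutation p = 0.0357, the smallest possible). The ratio of members to coding promoters was 0.0680, 0.0715, 0.0786, 0.0625, 0.0774 and 0.0906 in CatVII and 0.135 and 0.105 in AnaVI, without overlap. Its difference was -0.0449 (exact permutation p = 0.0357, adjusted 0.143), and it lies in the coding share, since the member shares did not separate. Fragment length separated the same groups, so the stage and the library's fragment length cannot be told apart.

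Open in AnaVI alone were 71 of 1095 members with a peak in these lists (6.48%, 64 stretches), against 1.63% of all promoters, and in CatVII wild type alone 15 (1.37%, 12 stretches), against 5.81% of all promoters. The counts moved with single libraries: the AnaVI count was 139 without AnaVI replicate 1 and 164 without replicate 2, and the CatVII count 55 without CatVII wild type replicate 3 and 39 without AnaVI replicate 2. Among the AnaVI members was Mir205hg, with folds of 10.1 and 8.70 in AnaVI and of 4.71, 5.39 and 4.43 in CatVII wild type replicates 2, 4 and 5, ranked too low to enter the equal lists. Gm57380 and Gm73846, starts that share a peak near Cbx8, had 9.69 and 14.4 in AnaVI and 6.40 in CatVII wild type replicate 2. Gm72874, near the heat shock gene Hspb1, had 11.2 and 13.5 against 4.28 and 5.31 in CatVII wild type replicates 1 and 2. All of these were also open in every CatVII Rxra WT library, at 4.10 to 10.8 for Mir205hg and 5.83 to 17.1 for Gm72874, so they were not closed in late catagen as such. The CatVII members included Dancr, A330023F24Rik and Gm20732, and Gm52897 near Nrf1 with 8.81, 12.5, 5.04, 9.34, 8.70 and 5.89 in CatVII and 3.74 and 9.98 in AnaVI, where its peaks fell below the equal list. In the CatVII set 8 of 15 starts (53.3%) held GGGCGG and in the AnaVI set 22.5%. Of the 1095 members with a peak in these lists 24% held it, so the AnaVI set lay near that level. The CatVII value rests on a small set whose size moved with single libraries, and no test was run.

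Loss of Rxra in late catagen left the share of open members within the spread of the libraries. At 40458 peaks the share was 8.31, 8.15 and 9.38% in the CatVII Rxra cKO libraries and 8.44, 11.3, 10.6 and 9.43% in CatVII Rxra WT (8.61 ± 0.668% against 9.93 ± 1.26%, difference -1.32, exact permutation p = 0.114, adjusted 0.229). The lowest Rxra WT library, replicate 1, is the one tagged day 42 like the Rxra cKO mice, and within that age the difference was 0.171. The ratio to coding promoters was 0.184 ± 0.0134 against 0.198 ± 0.0120 (exact permutation p = 0.229, adjusted 0.392). In Rxra WT alone were 54 of 3662 members (1.47%, against 0.462% of all promoters) and in Rxra cKO alone 17 (0.464%, against 0.117%). Without cKO replicate 1 these counts were 150 and 147, without cKO replicate 3 the first was 84, without cKO replicate 2 the second was 31, and without Rxra WT replicate 1 they were 180 and 31.

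The leading Rxra WT members also had peaks in some Rxra cKO libraries when whole lists were counted. Gm74497, near Irf1, a mediator of interferon responses, had folds of 8.89, 10.3, 7.12 and 11.8 in Rxra WT and 7 in Rxra cKO replicate 3 alone. Gm12496 had 4.81, 16.4, 10.4 and 11.2 against 4.56 and 6.25 in replicates 2 and 3. Gm62620 had 4.53, 12.9, 8.38 and 9.62 against 3.91 and 6.49 in the same replicates. Of the Rxra cKO members, Gm12023, 301780 bp from Meis1, had 4.59, 11.7 and 19.2 in Rxra cKO and 3.92 and 3.88 in Rxra WT replicates 2 and 4. 2700079J08Rik (chr2:118384467-118386467, plus strand, 5290 bp from Bmf, a pro-apoptotic gene) had 4.82, 12.2 and 15.6 against 4.28 in Rxra WT replicate 2. It was open again in the cultures of that genotype, at 13, 9.72 and 9.18 with corpses and 6.69 and 8.20 with the recombinant mixture, and in Rxra WT culture only in BEL replicate 4, at 3.77. Outside the comparison, the 54 Rxra WT members were open at 1.85, 83.3, 1.85, 25.9, 9.26 and 22.2% in CatVII wild type and at 0 and 25.9% in AnaVI. The 17 Rxra cKO members were open there at 11.8, 35.3, 0, 5.88, 0 and 0% and at 5.88 and 70.6%. Of all members, 3.59, 11.7, 1.56, 5.75, 3.40 and 3.13% had a peak in those CatVII libraries and 2.84 and 10.4% in AnaVI. Summits were those of the best-ranked peak over all libraries, which need not come from the group named. TGANTCA stood there at 28.9% of 45 Rxra WT members and 0 of 15 Rxra cKO members, against 25.6% of all member summits. GGAATG (TEAD) stood at 15.6 and 46.7%, against 15.4%, and neither word was tested.

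Corpses were compared with medium to ask what HFSCs open when they meet dead cells. At 4683 peaks the share of members was 1.03, 1.08, 1.06 and 1.06% with corpses and 0.790 and 0.498% in medium, without overlap (1.06 ± 0.0208% against 0.644 ± 0.207%, difference 0.416, exact permutation p = 0.0667, the smallest this design allows, adjusted 0.200). Coding promoters took 9.13 and 5.58% (exact permutation p = 0.200), and the ratio was 0.121 ± 0.0263 against 0.116 ± 0.00257 (exact permutation p = 0.667, adjusted 0.889). Open with corpses alone were 65 of 535 members (12.1%), near the 10.6% of all promoters, and in medium alone 6 (1.12%, against 1.68%). Without medium replicate 3 these were 98 and 86, and without medium replicate 4 the second was 90. The medium lists were the shortest of all and had longer fragments than the corpse libraries, at 195 to 207 bp against 60 to 104 bp, and the part of this in the result was not tested.

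The strongest corpse members were Gm67274, with folds of 14.9, 23.5, 29.4 and 34.9, and Gm46099 inside Ngef, with 17.6, 24.5, 25.2 and 31.4, and neither had a peak in Rxra WT medium. Gm46099 was nevertheless open in Rxra cKO medium replicate 1, at 7.72, and in all 15 in vivo libraries. In medium, Gm15996 had 8.04 and 8.83, and it was open with corpses as well, at 8.15, 11.6, 10.5 and 15.5, below the equal list. At summits taken over all libraries, TGANTCA stood at 41.7% of 60 corpse members and 0 of 4 medium members, against 25.6% of all. CCAAT (NFY) stood at 43.3% and 0, against 23.4%, with no test run. At 3976 peaks the corpse responses of the genotypes differed by -0.109 (exact permutation of genotype within treatment, p = 0.467, 210 arrangements). The recombinant mixture gave 1.08 and 1.14% against 0.790 and 0.498% in medium at 4683 peaks, and no test was run on 2 libraries a group.

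With corpses, the share of open members overlapped between Rxra WT and Rxra cKO cultures. At 70212 peaks the share was 13.1, 12.5 and 13.3% in Rxra cKO and 11.9, 12.8, 14.2 and 13.4% in Rxra WT (both 13%, SD 0.401 and 0.960, difference -0.0773, exact permutation p = 0.914, adjusted 1). Leaving out 1 library moved this difference between -0.411 and 0.291. The ratio was 0.259 in both (SD 0.00670 and 0.00688). The Rxra effect in corpse culture and in late catagen differed by 1.03 (exact permutation of genotype within setting, p = 0.319, 1225 arrangements). The members themselves differed at a few sites. In these equal lists, 78 of 4116 members (1.90%, against 0.742% of all promoters) were open in Rxra cKO alone. In Rxra WT alone were 45 (1.09%, against 0.535%). The first count was 131 without cKO replicate 2 and 119 without replicate 3, and the second was 74, 71 and 86 without cKO replicates 1, 2 and 3 and 92 without Rxra WT replicate 1.

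Mir181a-1hg (chr1:137825192-137827192, plus strand), host of a microRNA that tunes lymphocyte signalling, led the Rxra cKO set with folds of 18.7, 16.7 and 20.7, and Rxra WT corpses had 4.08 in replicate 4 alone. It was open in 15 of 15 in vivo libraries of every genotype, at 4.75 to 14.8, in 5 of 5 Rxra cKO cultures with corpses or the mixture and in 1 of 10 such Rxra WT cultures. Its summit (chr1:137826197-137826317) holds no AP-1 word and is shown because this member marks the genotypes in culture.
Mir181a-1hg: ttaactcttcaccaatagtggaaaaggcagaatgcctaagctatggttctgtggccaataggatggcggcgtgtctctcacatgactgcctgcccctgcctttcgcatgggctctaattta
Gm28340, 27031 bp from Tfap2b, a keratinocyte factor gene, had the same distribution in culture, with 16.1, 11 and 15.3 in the Rxra cKO corpse libraries, 7.18 and 10.3 in the cKO recombinant pair and 4.66 in Rxra WT corpses replicate 4. Gm11228 had 15.6, 10.3 and 16.3, then 13.4 and 10.7, against 5.83 in that same Rxra WT library. All 3 were thus open in Rxra cKO culture with corpses and with the mixture, had no peak in Rxra cKO medium, and had a peak in 1 Rxra WT culture library only. In the other direction, Gm75202, near Gpcpd1, had 8.48, 8.33, 12.5 and 19.4 in Rxra WT corpses against 4.44 and 5.91 in Rxra cKO replicates 1 and 3, and Gm14618, near Edn3, had 6.66, 6.10, 11.1 and 11.7 against 6.65 and 4.39 in replicates 1 and 2.

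1700030C10Rik (chr12:20864839-20866839, minus strand) was open mostly in Rxra cKO libraries. It had a peak in 9 of 10 Rxra cKO libraries and in 1 of the 24 others, with folds of 5.02, 7.08 and 12.4 in the CatVII Rxra cKO libraries, 9.80 in Rxra cKO medium replicate 1, 18, 18 and 19.6 with corpses and 15.1 and 16.2 with the mixture, and 4.98 in CatVII Rxra WT replicate 1. That library is the only Rxra WT one tagged day 42. In vivo the peak was thus called in every library tagged day 42 and in no other. The 2 Mb around 1700030C10Rik (chromosome 12, 20 to 22 Mb) held 3 of the 78 Rxra cKO members and 0 of the 45 Rxra WT members among 18 members there.

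Both sets carried over to libraries outside the comparison. Of the 78 Rxra cKO members, 75.6 and 69.2% were open in the Rxra cKO recombinant pair, 26.9 and 0% in the Rxra WT recombinant pair and 12.8, 10.3, 20.5 and 35.9% in BEL corpses. Of the 45 Rxra WT members, 97.8 and 0% were open in the Rxra WT recombinant pair, 91.1, 82.2, 93.3 and 95.6% in BEL corpses and 31.1 and 26.7% in the Rxra cKO recombinant pair. The 0% belong to Rxra WT recombinant replicate 3, whose list is short. In late catagen the raw percents overlapped between the genotypes. The Rxra cKO members were open at 23.1, 25.6 and 42.3% in the CatVII Rxra cKO libraries and 17.9, 46.2, 20.5 and 26.9% in CatVII Rxra WT, which overlap, and the Rxra WT members at 26.7, 26.7 and 55.6% and 26.7, 71.1, 51.1 and 57.8%. Of all members, 8.31, 10.3 and 20% had a peak in those CatVII Rxra cKO libraries. In CatVII Rxra WT it was 8.77, 21.9, 13.4 and 14.7%. The raw percents are thus not on a common scale, and their overlap cannot show that the division was absent. Whether the division seen in culture, where genotype and line cannot be told apart, was present in late catagen was not tested.

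**Figure D5:**
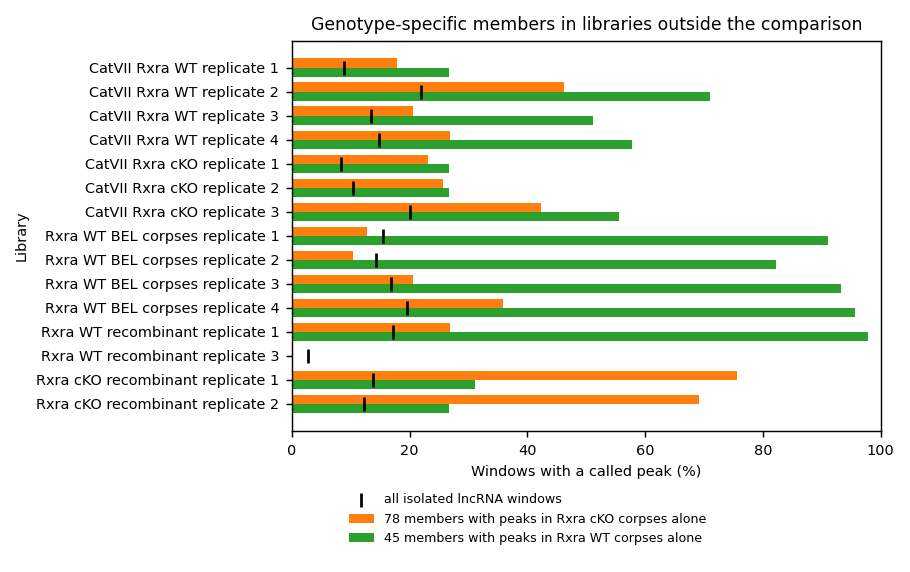
Bars give the percent (horizontal axis) of the 78 members open in Rxra cKO corpses alone and of the 45 open in Rxra WT corpses alone that had a peak in each library outside that comparison (vertical axis), and ticks give the percent over all members. Both sets were taken from lists of equal length, and the bars count all called peaks. The Rxra cKO recombinant libraries hold 75.6 and 69.2% of the first set, and BEL libraries hold 82.2 to 95.6% of the second.

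BEL-treated corpses were compared with untreated ones to ask what a block of calcium-independent phospholipase A2 in the dying cells changes in the HFSCs. At 62278 peaks the share was 14.3, 14.2, 14.4 and 14.6% in BEL and 11, 11.7, 13 and 12.2% in untreated corpses, without overlap (14.4 ± 0.195% against 12 ± 0.851%, difference 2.39, exact permutation p = 0.0286, the smallest possible, adjusted 0.143). Coding promoters were higher too, at 55.8 against 48.9% (exact permutation p = 0.0286), and the ratio was 0.257 ± 0.00542 against 0.245 ± 0.00555 (difference 0.0128, exact permutation p = 0.0286, adjusted 0.143), but it turned to -0.00826 in lists of 0.5 times that length. BEL libraries had longer fragments without overlap, so the treatment and the library's fragment length cannot be told apart. Over all called peaks the share difference was 1.14 (exact permutation p = 0.629), and without BEL replicate 3 or 4 the equal-list p was 0.0571. In BEL alone were 94 of 3980 members (2.36%, against 3.24% of all promoters, so not above the background) and in untreated corpses alone 6 (0.151%, against 0.0652%). Without untreated replicate 3 the first count was 185, and leaving out 1 library raised the second to at most 15.

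Gm72332, 22815 bp from the WNT receptor gene Fzd10, had folds of 14.2, 15.5, 16.3 and 14 in BEL corpses and no peak in untreated corpses of either genotype. It was otherwise open in CatVII wild type replicate 2 (8.42), CatVII Rxra WT replicate 2 (9.39) and Rxra cKO recombinant replicate 1 (13). Gm61585 had 14.3, 13.2, 14.9 and 15.3 against 4.08 in untreated replicate 3, and 19.6, 12.4 and 12.5 in 3 recombinant libraries. Gm44238, 9915 bp from the cell cycle inhibitor gene Cdkn1b, had 12.7, 11.1, 12.5 and 12.2 against 3.6 in untreated replicate 4.

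Culture with corpses and late catagen of Rxra WT HFSCs gave overlapping shares but many members called on 1 side only. At 42992 peaks the share was 8.21, 8.74, 9.71 and 9.08% with corpses and 8.77, 11.9, 11 and 9.91% in CatVII Rxra WT (8.93 ± 0.632% against 10.4 ± 1.35%, difference -1.46, exact permutation p = 0.114, adjusted 0.229), and the ratio was 0.205 against 0.204 (exact permutation p = 0.971, adjusted 1). In lists of 0.5 times that length the ratio was higher with corpses by 0.0230 (exact permutation p = 0.0286, unadjusted). Yet 318 of 4017 members (7.92%, against 2.46% of all promoters) were open with corpses alone and 382 (9.51%, against 4.86%) in CatVII alone, in 306 and 348 stretches. Members were called more often than coding promoters in both directions, the latter at 1.03 and 3.88%. Without CatVII Rxra WT replicate 1 the CatVII count was 645.

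The summit letters of these sets differed. The best-ranked summit was taken over all libraries. TGANTCA stood within 100 bp of it at 59.1% of 276 corpse culture members and 11.3% of 346 CatVII members. In general 25.6% of member summits held the word. Coding promoters called in the same way showed the same order, at 44.2% of 113 and 5.07% of 434. In the start stretch it stood in 24.8% and 6.81% of these members, against 15.1% of members open in any of these libraries. Gm34130, 79814 bp from Dusp10, a phosphatase of stress kinases, had folds of 21.2, 23.7, 24.2 and 26.6 with corpses and no peak in CatVII Rxra WT. Gm13415, inside Pax8, had 12.2, 20.3, 21.3 and 25.7, Gm66412, near Sema4f, 18.7, 14.8, 20 and 19, and Gm75492, inside Uqcc1, 19.6, 21.8, 18.5 and 23.8. These are the first summits printed above, and every one was also open in all BEL and all Rxra cKO corpse libraries. Gm66412 holds the word at 2 places, and Gm75492 holds none.

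On the CatVII side, Gm64803, inside Stox2, had folds of 16.2, 22.7, 13.7 and 18.2 in CatVII Rxra WT and was open in 15 of 15 in vivo libraries and 0 of 19 in culture. Gm67544 had 13.8, 15.8, 10.2 and 13.5 and was open in 14 in vivo libraries and none in culture. Gm60878 had 9.47, 11, 9.28 and 11.2, and in culture only Rxra cKO libraries had a peak, among them corpses replicates 1 and 3 at 12.2 and 9.51. These 3 were open in vivo in both genotypes and at both stages. Gm60110 had 11.2, 7.66, 8.29 and 9.27, and Serpina3h, a serine protease inhibitor gene listed as lncRNA, 10.5, 11.9, 11.1 and 10.2, and both also had peaks with corpses, below the equal list, at 5.37, 5.64 and 6.55 and at 5, 8.27 and 4.70.

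Both sets were then counted in libraries that had not defined them. The 318 corpse culture members were open at 97.5, 97.5, 100 and 100% in BEL corpses, 99.1, 95.9 and 99.4% in Rxra cKO corpses and 92.1 and 88.4% in the Rxra cKO recombinant pair. In the Rxra WT recombinant pair they were open at 99.4 and 17.3%, the second in the short list of replicate 3. In vivo they were open at 0.314 to 9.43% in CatVII wild type and 3.14, 17.6 and 41.5% in CatVII Rxra cKO. The 382 CatVII members were open at 82.5, 69.6 and 94.8% in the CatVII Rxra cKO libraries and at 28.5 to 49% in BEL corpses. In CatVII wild type they were open at 23.8, 93.7, 11, 46.9, 25.1 and 23%. Replicates 1, 3, 5 and 6 thus stood below every BEL library and below Rxra WT recombinant replicate 1 (34.8%). Of all members, however, 3.59, 1.56, 3.40 and 3.13% had a peak in those CatVII wild type replicates. The share was 14.2 to 19.5% in BEL and 17.1% in that recombinant library, so these percents are not on a common scale. CatVII Rxra cKO replicate 3 had the largest in vivo list and was the in vivo library with most of the corpse culture members. Cell source, feeder layer and sorting differ together between culture and skin and cannot be told apart.

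The calls of Gm69339 (chr9:110109626-110111626, plus strand, 23129 bp from Elp6) split with the shortest peak of the library. It was open in exactly the 15 libraries whose shortest peak was 58 to 117 bp and in none of the 19 at 121 to 219 bp. The cut between these lengths was set from its own calls, so its match is a description only. A link to fragment length was not tested. Gm69339 was the 1 member with that division, and 0 showed the reverse. Its folds were high where it was open, at 28.5 and 40.7 in AnaVI, 68.2 and 61.6 in CatVII Rxra WT replicates 1 and 4, 54, 60.7, 63.7 and 72 in Rxra WT corpses as well as 74.4, 62.6 and 70.4 in the Rxra cKO corpse libraries, and it ranked in the top 0.0321 to 0.611% of those lists. It thus appears among members that separate corpses from medium, and BEL corpses have no peak there.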

How the data were processed

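ATAC-seq peaks were analysed in 34 libraries of mouse HFSCs. The authors used BWA 0.7.18 to align the reads to mm39 and SAMtools 1.17 to drop duplicates. Their peaks come from MACS3 3.0.0, run on paired fragments of 1 library at a time without a control at a q threshold of 0.05. Each deposited peak has a fold over local background (a ratio), a -log10 p, a -log10 q and a summit offset. The lists hold no read counts, so the depth is unknown, no interval for counting error is given, and absence of a call can mean shallow sequencing.

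From these lists the presence of a peak was scored, with at least 1 bp of overlap, in windows of 1 kb on either side of gene starts of GENCODE M39. Members, gene lists, tests and comparisons were chosen with earlier results of these data known. Groups came from the labels. For each comparison every library was shortened to the autosomal peak number of the shortest one by -log10 p. The share of members with a peak and its ratio to the protein-coding share were tested by exact two-sided permutation over libraries, with Benjamini-Hochberg adjustment over 12 tests, in Python 3.11.15 with NumPy 2.4.6, pandas 2.3.3 and numba 0.67.0, and figures were drawn with matplotlib 3.10.9. The procedure was tested on simulated lists. Named members were those of the fixed lists, members with a peak in nearly every library and the leading members of each comparison by rank, with exceptions marked where they occur. Sequences were read from the mm39 genome, and mature microRNAs from RefSeq. The genome file marks no repeats, so the planned repeat share was replaced by the share of 25-base words found elsewhere in the genome. Same-numbered replicates did not deviate together, so the numbers were not taken as pairs. Correlations between BEL and untreated corpse libraries of unlike number reached -0.10 and 0.12. The tests took no account of any structure shared by libraries of different groups.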

Additional observations from a re-analysis of the deposited data

How the results depend on the processing

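Absence of a peak in a short list is not absence of open chromatin, and no depth was available to separate them. Designs of 6 against 2, 4 against 2 or 4 against 4 libraries bound the p-values from below, and fragment length moved with stage and with BEL. Of the alternatives for shares, 75 kept direction and side of the threshold, 10 reversed and 6 fell below it, for ratios 54, 17 and 14, with 1 passing it, and for counts of group-specific members 78 stayed within 1.5 times and 34 did not. The cause was not tested. With all called peaks, the CatVII to AnaVI ratio difference was -0.0619, the share differences were 2.12 (cKO against WT corpses), 1.14 (BEL) and 0.647 (corpses against CatVII), the BEL ratio difference was -0.00667 and the genotype difference of the corpse effect 2.10. The counts were then 5 (CatVII wild type) and 40 (AnaVI), 1 (CatVII Rxra cKO) and 20 (CatVII Rxra WT), 2067 (corpses) and 1 (medium), 14 (Rxra WT corpses against cKO), and 32 (BEL) and 12 (untreated). In lists of 0.5 times the length, ratio differences were -0.00468 (cKO against WT corpses), -0.00826 (BEL) and 0.0230 (corpses against CatVII). With starts over 10 kb away the cKO against WT corpse share difference was 0.0177 and the corpses against CatVII ratio difference -7.59e-05. For BEL the ratio difference was 0.0127 by fold rank and 0.00418 with the summit in the window. Windows with mostly unique words, chosen after seeing the data, gave ratio differences of -0.000352 (cKO against WT corpses), 0.0125 (BEL) and -0.000153 (corpses against CatVII). Libraries tagged day 42 gave a CatVII cKO share difference of 0.171, NonPhago libraries 0.462 (cKO against WT corpses) and 2.87 (BEL), and Phago libraries 2.29 (BEL). A replicate block over shared numbers, which did not pair the samples (same-number correlations from -0.06 to 0.06), gave -0.0499 (CatVII to AnaVI ratio), -0.0132 (corpses to medium ratio), 0.0320 (cKO against WT corpse share), and 2.39 and 0.0128 (BEL share and ratio). Leaving out 1 library, share differences ranged from -0.175 to 0.148 (CatVII against AnaVI), -1.82 to -0.864 (CatVII cKO), 0.270 to 0.610 (corpses against medium), -0.411 to 0.291 (cKO corpses), 2.06 to 2.74 (BEL, exact permutation p of 0.0571 without BEL replicate 3 or 4) and -2.32 to -0.968 (corpses against CatVII). Ratio differences ranged from -0.0599 to -0.0299, -0.0204 to -0.00680, -0.0168 to 0.0149, -0.00224 to 0.00391, 0.0106 to 0.0162 and -0.0110 to 0.00452 in the same order. Counts ranged from 15 to 55 (CatVII wild type) and 72 to 164 (AnaVI), 19 to 147 and 58 to 180 (CatVII cKO and WT), 70 to 98 and 6 to 90 (corpses and medium), 86 to 131 and 53 to 92 (cKO and WT corpses), 103 to 185 and 6 to 15 (BEL and untreated), and 331 to 404 and 387 to 645 (corpses and CatVII).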
